A study of Mus musculus with 24 samples.

Results

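Gene expression was compared between 3 libraries labelled Pus10-KO and 3 labelled Pus10-WT, which are 6 of the 24 libraries in a series on sorted mouse hematopoietic stem cells (HSCs). The 6 libraries were taken by their titles, and all 55487 genes of the count tables were considered, with immunoglobulin genes shown apart from the rest. The latter were defined by symbols that start with Ighv, Igkv, Iglv, Ighm, Igkc or Iglc, which took 355 genes. This rule on letters also takes Ighmbp2, the gene of a helicase that is not an immunoglobulin, and leaves out Igha and Jchain.

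The Pus10-KO group carries a knockout genotype of Pus10 and the Pus10-WT group the wild-type genotype. The labels give both as sorted HSCs and state no strain, age, sex, knockout allele, number of animals or other treatment. The remaining 18 libraries overexpress PUS10 (PUS10-OE, n = 3) or a vector (Vector, n = 3), or have the microRNA miR-139 knocked down (miR139-KD, n = 6) or received a non-target control (NTC, n = 6).

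HSCs are the rare bone marrow cells from which all blood lineages arise, and most of them are quiescent. PUS10 belongs to the pseudouridine synthases, which turn uridine in RNA into its isomer pseudouridine, and it has also been described as a factor in the processing of primary microRNAs. Immunoglobulins are made by cells of the B lineage: each B cell joins 1 heavy chain V segment and 1 light chain V segment to a constant gene, and its plasma cell progeny devote a large part of their messenger RNA to that pair. HSCs do not rearrange these genes.

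The V segments that led the immunoglobulin reads differed between the wild-type libraries, and the leading ones are shown so that the size of that difference can be seen. These are the last 300 coding bases of the germline V exons from GENCODE M21 (GRCm38), all on the minus strand. Those of Ighv1-26 lie at chr12:114788372-114788671, of Ighv1-81 at chr12:115920279-115920578 and of Ighv1-82 at chr12:115952538-115952837. Capitals mark the 61 positions at which the 3 heavy chain sequences are not all the same.
Ighv1-26: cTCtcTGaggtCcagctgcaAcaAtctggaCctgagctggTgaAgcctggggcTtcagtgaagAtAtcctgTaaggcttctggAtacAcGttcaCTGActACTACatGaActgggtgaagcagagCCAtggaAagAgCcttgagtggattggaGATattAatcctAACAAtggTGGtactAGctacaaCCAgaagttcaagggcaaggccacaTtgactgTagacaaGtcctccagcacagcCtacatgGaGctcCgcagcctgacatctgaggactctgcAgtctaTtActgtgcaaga
Ighv1-81: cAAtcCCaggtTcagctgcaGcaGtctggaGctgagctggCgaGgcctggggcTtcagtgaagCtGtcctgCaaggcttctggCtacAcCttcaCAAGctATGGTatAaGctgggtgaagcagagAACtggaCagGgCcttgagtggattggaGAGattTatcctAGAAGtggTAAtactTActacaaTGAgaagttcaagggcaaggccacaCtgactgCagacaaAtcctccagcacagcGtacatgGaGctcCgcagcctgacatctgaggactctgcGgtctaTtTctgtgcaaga
Ighv1-82: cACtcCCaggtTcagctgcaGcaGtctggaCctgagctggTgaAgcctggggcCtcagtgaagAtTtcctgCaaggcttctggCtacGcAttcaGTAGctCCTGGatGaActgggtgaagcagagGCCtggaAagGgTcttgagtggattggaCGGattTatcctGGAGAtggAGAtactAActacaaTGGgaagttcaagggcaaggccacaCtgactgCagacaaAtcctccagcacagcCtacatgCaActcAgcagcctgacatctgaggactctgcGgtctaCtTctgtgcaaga
The light chain segment that led in both Pus10-WT 2 and Pus10-WT 3 is Igkv4-59, at chr6:69438218-69438517, printed without capitals because no other segment is set beside it.
Igkv4-59: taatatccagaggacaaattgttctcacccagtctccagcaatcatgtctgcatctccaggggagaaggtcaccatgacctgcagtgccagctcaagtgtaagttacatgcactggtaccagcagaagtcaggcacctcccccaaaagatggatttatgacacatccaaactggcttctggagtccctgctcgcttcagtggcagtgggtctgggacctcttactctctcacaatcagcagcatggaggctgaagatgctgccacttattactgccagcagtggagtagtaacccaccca
Over the whole coding part, leader included, Ighv1-26 and Ighv1-81 were 85.8% identical, Ighv1-26 and Ighv1-82 84.9%, and Ighv1-81 and Ighv1-82 88.0%. Each had closer relatives in the genome: Ighv1-26 was 96.9% identical to Ighv1-18, Ighv1-81 92.9% to Ighv1-85, Ighv1-82 95.4% to Ighv1-80, and Igkv4-59 96.3% to Igkv4-70. Reads of such near copies can be assigned to the wrong member, so single V genes are less certain than their class.

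Counts assigned to genes (M, mega) came to between 14.5 M and 16.5 M in Pus10-WT and between 11.9 M and 18.2 M in Pus10-KO. Genes with at least 1 count numbered 17179 to 17498 in Pus10-WT and 16592 to 16960 in Pus10-KO. Correlations of log2 levels across genes were 0.907 to 0.928 within the groups and 0.902 to 0.916 between them, a description over genes, which are not replicates. HSC markers were present in all 6 libraries: Kit, the stem cell factor receptor, stood between 420 and 461 CPM and Hlf, an HSC transcription factor, between 308 and 436 CPM. CPM are counts per M counts assigned to genes, after TMM normalisation over the 6 libraries. Xist, the RNA that silences an X chromosome, stood between 178 and 292 CPM, and the Y-linked Ddx3y, Uty and Kdm5d were at 0 in all 6. Whether replicates are separate mice is not stated, so the p-values reflect only how far these libraries spread, part of which may be technical.

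Pus10 itself, measured first as a check of the labels, stood at 19.6, 31.8 and 33.8 CPM in the 3 Pus10-WT libraries and at 35.6, 33.7 and 36.3 CPM in the 3 Pus10-KO libraries. The groups overlapped and the libraries labelled Pus10-KO were not lower. Their log2 difference was 0.31 (SE 0.279, adjusted p by edgeR 0.951). Counts are given per gene (ENSMUSG00000020280.12, chr11:23665674-23732876, plus strand, GRCm38) and not per exon, so reads from a transcript with a deleted or disrupted exon would still be counted. Genotypes are therefore used as labelled, and every direction below is that of the library labelled Pus10-KO. Of the 45 genes tested within 5 Mb of Pus10, 0 had an edgeR unadjusted p under 0.05, beside 6.86% of all genes. By group separation 1 of the 45 was higher and 3 were lower in Pus10-KO, beside 6.86% and 6.79% of all genes.

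Immunoglobulin reads differed widely between the groups. They made up 2.05% (95% exact binomial interval 2.04 to 2.05), 2.83% (2.82 to 2.84) and 2.94% (2.93 to 2.95) of all gene counts in Pus10-WT 1, 2 and 3. In Pus10-KO 1, 2 and 3 they made up 0.00748% (0.00699 to 0.00798), 0.00602% (0.00563 to 0.00643) and 0.00475% (0.00444 to 0.00508). All 3 wild-type libraries were high and all 3 knockout libraries low, with no overlap. In bulk libraries, fewer cells of a type and less RNA per cell cannot be told apart. These intervals cover the counting of reads only. The reads carry no molecular identifiers, so copies of 1 molecule are counted apart and the intervals can be too narrow. The same holds for the counting intervals below.

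The same genes were measured in the other 18 libraries, and their level there did not follow 1 group. Their share was 0.00406% to 0.00645% in Vector and 0.000864% to 0.00393% in PUS10-OE, close to the Pus10-KO range. In NTC it ran from 0.0489% to 1.82%, with 1 of 6 libraries above 0.5%, and in miR139-KD from 0.0085% to 1.81%, with 2 of 6 above 0.5%. All 3 Pus10-WT libraries exceeded the highest of those 18.

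**Figure D1:**
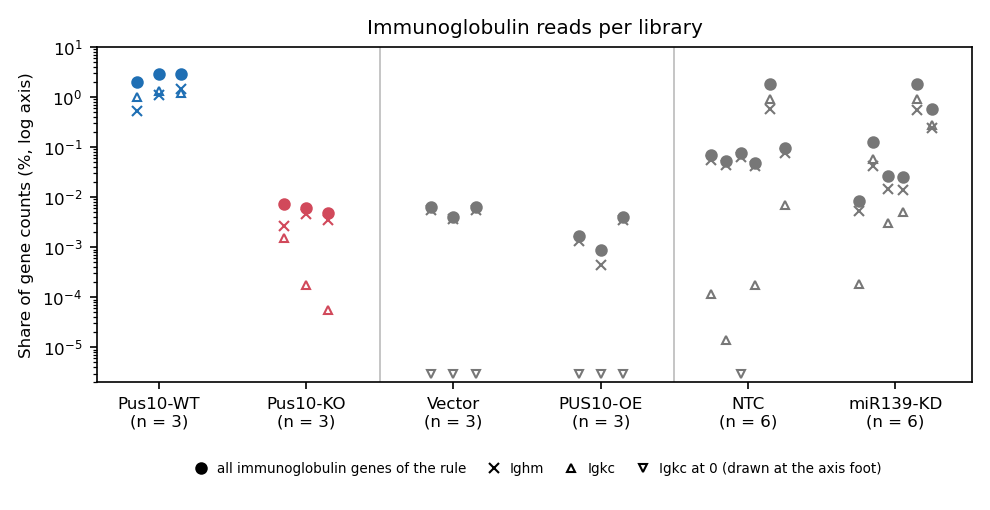
Share of gene counts taken by all immunoglobulin genes of the rule (circles), by Ighm (crosses) and by Igkc (triangles) in each of the 24 libraries, on a log axis in percent, by group. The 3 Pus10-WT libraries sit between 2.05% and 2.94% and the 3 Pus10-KO libraries between 0.00475% and 0.00748%, while NTC and miR139-KD libraries spread between these levels.

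Ighm, the constant region of the mu heavy chain of IgM (chr12:113418558-113422730, minus strand), stood at 5385, 11166 and 14572 CPM in Pus10-WT and at 25.9, 44.4 and 34.1 CPM in Pus10-KO. Its log2 fold change was -8.22 (SE 0.468), with an adjusted p by edgeR of 0.00293, and it was lower in 3 of 3 knockout libraries than in any wild-type library. Leaving out Pus10-KO 2 or Pus10-KO 3 ended that call, with adjusted p-values of 0.0561 and 0.0569. So did limma-voom (0.640), a filter of 10 CPM (0.0610) and a fit over all 6 groups (0.131). Igkc, the constant region of the kappa light chain (chr6:70726435-70726966), stood at 10094, 13943 and 12066 CPM in Pus10-WT against 14.6, 1.75 and 0.542 CPM in Pus10-KO. Its groups did not overlap either, yet its edgeR adjusted p was 0.163. Its level in Pus10-KO 1 was well above that in the other knockout libraries. The fitted log2 fold change of Igkc was -11.11 (SE 1.41).

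The lambda constant genes were far lower in level but gave calls. Iglc2 stood at 62.0, 38.8 and 34.7 CPM in Pus10-WT and at 0 in all 3 Pus10-KO libraries, at least 691-fold lower when 3 counts are taken as the group's floor (edgeR adjusted p = 0.0238). Iglc3 stood at 19.4, 14.9 and 25.3 CPM in Pus10-WT and had 1 count in all of Pus10-KO, a ratio of 893 with a counting interval of 160 to 35330 (adjusted p = 0.0238). Iglc1, at 71.8, 18.3 and 11.95 CPM, was also at 0 in Pus10-KO, at least 530.5-fold lower, and did not pass (0.185). The calls of Iglc2 and Iglc3 were kept in 8 and 7 of the 18 alternatives that did not remove these genes. Both were lost with limma-voom (0.460 each), with all 6 groups in 1 fit (0.377 and 0.403), and with any Pus10-WT library, Pus10-KO 2 or Pus10-KO 3 left out (0.0690 to 0.181 and 0.0934 to 0.284), and Iglc3 also without Pus10-KO 1 (0.0601). The lambda V genes Iglv1 and Iglv3 had adjusted p-values of 0.0594 and 0.429.

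Of the 355 genes, 277 had no count in any of the 6 libraries, 54 were seen only in Pus10-WT, 9 only in Pus10-KO and 15 in both. Only 9 passed the filter on low counts, and 3 of these (Ighm, Iglc2 and Iglc3) were called lower, where 0.0614% of all 14657 genes tested were called in either direction. By group separation 8 of the 9 were lower in Pus10-KO without overlap, beside 6.79% of all genes lower and 6.86% higher. The same 8 had an unadjusted p under 0.05, beside 6.86% of all genes in either direction. The lower members other than Ighm passed the filter only through their levels in Pus10-WT, so their direction was set in advance. These counts therefore cannot be weighed against the shares over all genes. They also say nothing of the members that were filtered out. Ighmbp2, the helicase, stood at 4.48, 17.8 and 17.2 CPM in Pus10-WT and 15.3, 11.7 and 10.8 CPM in Pus10-KO (adjusted p = 0.999), and its direction turned under 7 of 18 alternatives.

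The kappa and mu reads were not in a fixed proportion. Per 100 Ighm counts there were 188, 125 and 82.8 Igkc counts in Pus10-WT 1, 2 and 3, against 56.5, 3.95 and 1.59 in Pus10-KO 1, 2 and 3. The 3 Vector and 3 PUS10-OE libraries had between 186 and 2038 Ighm counts and 0 Igkc counts each. In the 3 libraries of the miR-139 experiment with the most immunoglobulin the ratio was 116 to 169 per 100. Ighm reads thus appeared in libraries with hardly any light chain reads. Counts are given per gene, so they do not tell which part of Ighm these reads cover.

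In each wild-type library a few V genes held nearly all V reads. In Pus10-WT 1, Ighv1-82 held 51.3% (95% exact interval 50.6 to 52.0) of 18497 Ighv counts, Ighv1-18 held 41.4% and Ighv1-72 held 5.87%. In Pus10-WT 2, Ighv1-26 held 98.9% of 32240 counts. In Pus10-WT 3, Ighv1-81 held 91.0% of 15592 counts, followed by Ighv1-77 with 5.45% and Ighv1-83 with 3.26%. No leading heavy chain V gene was shared between the 3 libraries.

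The kappa V genes were as narrow but were partly shared. Pus10-WT 1 had Igkv2-109 at 59.7% of 66841 counts, Igkv3-2 at 17.9%, Igkv1-110 at 14.9% and Igkv2-116 at 7.19%. Igkv4-59 held 99.7% of 32042 counts in Pus10-WT 2 and 99.3% of 31445 counts in Pus10-WT 3, beside different heavy chain segments, and 0.809 CPM in Pus10-WT 1. As levels, Igkv4-59 stood at 2014 CPM in Pus10-WT 2 and 2208 CPM in Pus10-WT 3, and Ighv1-26 stood at 2010 CPM in Pus10-WT 2 alone. The Pus10-KO libraries held 131, 10 and 19 Ighv counts and 77, 6 and 5 Igkv counts, too few to describe their use of segments.

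**Figure D2:**
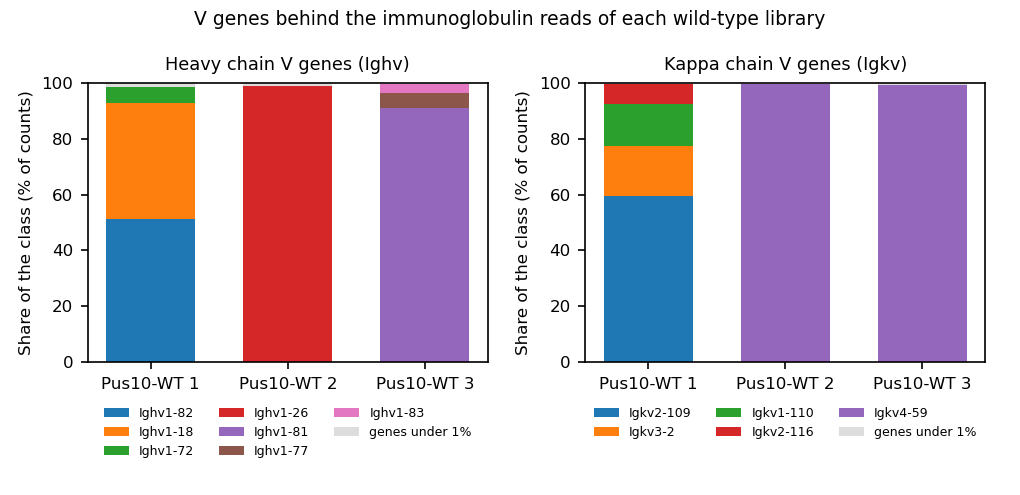
Share of Ighv counts (left) and of Igkv counts (right) held by each V gene at 1% or more in the 3 Pus10-WT libraries, in percent, with the remaining genes in grey. Pus10-WT 2 and Pus10-WT 3 share Igkv4-59 at 99.7% and 99.3% but are led by Ighv1-26 (98.9%) and Ighv1-81 (91.0%), and Pus10-WT 1 is led by Ighv1-82 and Ighv1-18.

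Plasma cell genes were also at lower levels in Pus10-KO. Of 18 plasma cell genes tested, 2 were called lower, Jchain and Prg2, beside 0.0478% of all genes. A lower value with an unadjusted p under 0.05 was held by 10 of the 18, beside 3.33% of all genes. The list's median log2 fold change was -1.59, against 0.00 over all genes tested. Jchain and the 3 tested members at 0 in Pus10-KO, Prg2 among them, passed the filter only through Pus10-WT, which set their direction. The list was also chosen with earlier results known, so its counts are a description only. Jchain, the chain that joins IgM and IgA into polymers, stood at 3982, 1466 and 1002 CPM in Pus10-WT and at 0.165, 1.01 and 3.69 CPM in Pus10-KO (a log2 difference of -10.26, SE 1.02, adjusted p by edgeR 0.0238). Prg2, a granule protein of eosinophils that is on both the plasma cell and the mast cell, basophil and eosinophil lists, stood at 19.2, 29.9 and 31.4 CPM against 0 in all 3, at least 403-fold lower (0.0238). Of the latter list, 7 genes were at 0 in all 6 libraries, among them Epx, the eosinophil peroxidase. Hdc, which makes histamine, was at 0 in Pus10-WT and Pus10-KO 1 and at 10.7 and 8.13 CPM in Pus10-KO 2 and 3. The fit with plasma cell genes removed does not hold Prg2 or Jchain, which leaves 18 alternatives. The Prg2 call was lost in 10 of these 18. The Jchain call was kept in 5 of the 18. It was lost with limma-voom (0.832), no filter (0.463), a filter of 10 CPM (0.229) and all 6 groups in 1 fit (0.589). Any 1 library left out also ended it (0.0645 to 0.307). The groups do not overlap for Jchain or Prg2, and the Jchain level of Pus10-WT 1 exceeded those of the other wild-type libraries.

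Other plasma cell genes did not pass. Xbp1, the transcription factor of the secretory programme, stood at 495, 609 and 524 CPM in Pus10-WT against 227, 315 and 341 CPM in Pus10-KO, a log2 fold change of -0.88 (SE 0.167) that did not pass (edgeR adjusted p = 0.350). Mzb1, a chaperone of IgM assembly in B and plasma cells, stood at 3.11, 13.4 and 3.32 CPM against 0 in all 3, at least 102-fold lower (0.429). Sdc1, the surface proteoglycan CD138 by which plasma cells are sorted, stood at 28.9, 10.9 and 6.22 CPM against 0.987, 5.94 and 8.18 CPM, and these groups overlapped.

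Of 10 B lineage genes tested, 1 was called lower and 4 had a lower value with an unadjusted p under 0.05, where 0.0478% and 3.33% of all genes did. Cd79a, Fcrla and Ms4a1 passed the filter only through Pus10-WT. Cd79a, a signalling chain of the B cell receptor, stood at 31.4, 37.5 and 40.0 CPM in Pus10-WT and at 0 in all 3 Pus10-KO libraries, at least 548-fold lower (edgeR adjusted p = 0.0238). That call was lost in 10 of 19 alternatives, among them each Pus10-WT library, Pus10-KO 2 or Pus10-KO 3 left out, with adjusted p-values of up to 0.323. Fcrla and Ms4a1, which encodes the B cell antigen CD20, were also at 0 in Pus10-KO, from 2.33 to 13.4 CPM and from 2.19 to 4.17 CPM in Pus10-WT, without passing (0.350 and 0.455). Of all 18 B lineage genes, 4 were at 0 in all 6 libraries (Pax5, Igll1, Blk and Rag2), and Rag1 reached 0.560 CPM in 1. A further 5 were at 0 in Pus10-KO alone and 1 was at 0 in Pus10-WT alone. Among early lymphoid genes, Ly6d, a surface antigen of B-committed progenitors, stood at 10.7, 52.7 and 49.2 CPM in Pus10-WT and at 0 in Pus10-KO, at least 560-fold lower (0.119).

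The summed level of the 19 plasma cell genes was 2497 to 5602 CPM in Pus10-WT and 958 to 1139 CPM in Pus10-KO. For the 18 B lineage genes it was 154 to 179 CPM against 74.0 to 87.3 CPM. Cd79b, the other signalling chain of the B cell receptor, made up most of the Pus10-KO sum, at 92.4, 117 and 77.9 CPM in Pus10-WT and 62.8, 59.9 and 74.7 CPM in Pus10-KO (log2 difference -0.54, adjusted p by edgeR 0.650). Cr2, a complement receptor, stood at 2.77 to 6.08 CPM against 1.42 to 7.21 CPM, with overlapping groups. The part of cells or RNA of other types in the immunoglobulin result was not tested.

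**Figure D3:**
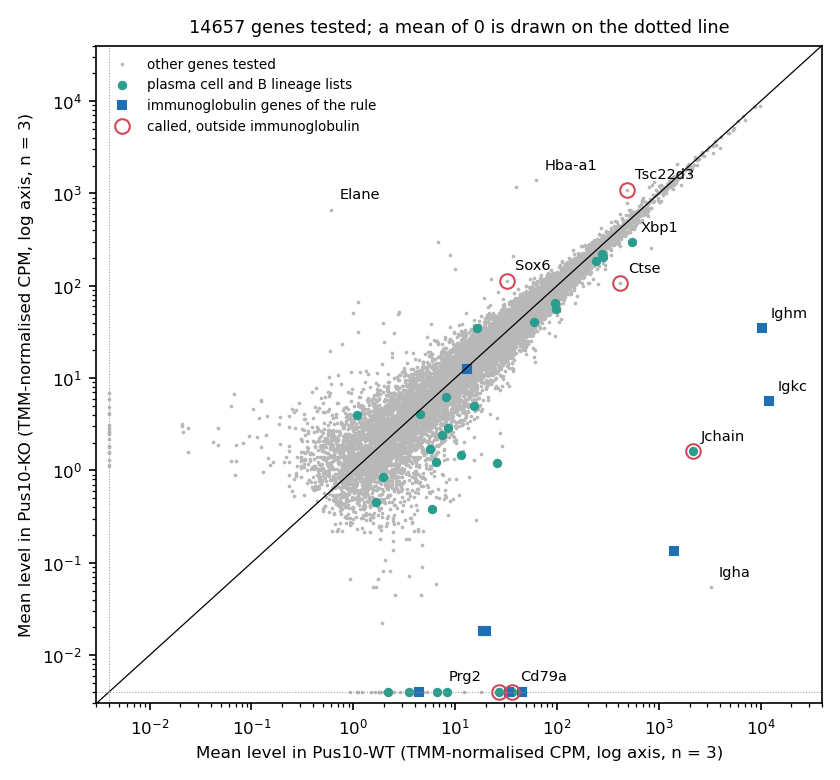
Mean level in Pus10-WT (x axis) against Pus10-KO (y axis) of each gene tested, in TMM-normalised CPM on log axes (n = 3 each), with immunoglobulin genes of the rule as squares, plasma cell and B lineage genes filled, and genes called outside immunoglobulin ringed. Ighm, Igkc, Igha and Jchain lie far below the diagonal, Sox6 and Tsc22d3 above it and Ctse below it, and the square on the diagonal is Ighmbp2.

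Outside immunoglobulin, 6 genes passed the test of all 14657: Sox6 and Tsc22d3 rose, and Ctse, Cd79a, Jchain and Prg2 fell. Genes called higher made up 0.0136% of those tested and genes called lower 0.0478%. Sox6, a transcription factor with a role in red cell maturation (chr7:115470872-116038796), stood at 28.9, 31.1 and 36.3 CPM in Pus10-WT and at 118, 107 and 114 CPM in Pus10-KO. The lowest knockout library lay well above the highest wild-type library, and the log2 difference was 1.82 (SE 0.171, adjusted p by edgeR 0.0238).

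Tsc22d3 encodes GILZ, a leucine zipper protein induced by glucocorticoids (chrX:140539528-140600659). It stood at 478, 543 and 426 CPM in Pus10-WT and at 1065, 1217 and 1001 CPM in Pus10-KO, a log2 difference of 1.18 (SE 0.121, adjusted p by edgeR 0.0238). Ctse encodes cathepsin E, an aspartic protease of endosomes (chr1:131638306-131675505). It fell from 473, 369 and 395 CPM to 107, 131 and 83.1 CPM, with a log2 fold change of -1.94 (SE 0.188, adjusted p = 0.0238). None of these 3 genes had overlapping groups.

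These calls stood close to the threshold. With immunoglobulin and plasma cell genes removed before scaling, 0 genes passed, and 986 had an edgeR unadjusted p under 0.05. That setting moved the median log2 fold change of all genes by -4e-04. It also took the called genes Ighm, Iglc2, Iglc3, Jchain and Prg2 out of the Benjamini-Hochberg adjustment, which depends on the other low p-values. Sox6, Ctse and Tsc22d3 then each had an adjusted p of 0.0504, with log2 fold changes of 1.82, -1.95 and 1.18. A fit over all 6 groups ended the calls of Sox6 and Ctse, and the replicate number as a block ended all 3. Leaving out any of the 6 libraries also ended the 3 calls, with adjusted p-values of 0.0787 to 0.179 for Sox6, 0.0690 to 0.181 for Ctse and 0.0933 to 0.224 for Tsc22d3, while the fold changes stayed between 1.74 and 1.91, -2.11 and -1.79, and 1.10 and 1.27.

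Among genes with separated groups and a mean log2 CPM of at least 3, the next in order of p did not pass. On the higher side, Akap13, an anchor for protein kinase A, stood at 473, 520 and 468 CPM in Pus10-WT and 765, 790 and 810 CPM in Pus10-KO (log2 difference 0.69, SE 0.0856, adjusted p by edgeR 0.0646). Rin3, an activator of the endosomal GTPase Rab5, stood at 22.8, 24.3 and 31.4 CPM against 101, 71.0 and 82.8 CPM (1.70, SE 0.230, adjusted p = 0.106). Each knockout library exceeded each wild-type library in both genes. Ppm1d, a phosphatase that dampens p53 signalling, stood at 11.1 to 11.9 CPM against 28.9 to 43.0 CPM (0.257), and Rec8, a cohesin subunit of meiosis, at 13.4 to 24.2 CPM against 59.6 to 91.6 CPM (0.163). Tmem243, at 4.41 to 6.15 CPM against 24.7 to 30.9 CPM, had an adjusted p of 0.119. The pseudogenes Tmem181b-ps and Mrpl48-ps, also in this group (0.146 and 0.263), can share reads with their parent genes.

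On the lower side the processed pseudogene Gm13394 came next, at 227, 275 and 260 CPM against 90.6, 103 and 121 CPM (log2 difference -1.28, SE 0.150, adjusted p by edgeR 0.0558), then Gm30211 (0.0883), Ly6d (0.119) and the pseudogene Gm6472 (0.119). Selp, the adhesion molecule P-selectin, stood at 190, 189 and 166 CPM in Pus10-WT and at 105, 96.5 and 95.8 CPM in Pus10-KO (-0.88, SE 0.126, adjusted p = 0.120). Prune2 stood at 94.1, 123 and 95.6 CPM against 36.7, 54.1 and 29.9 CPM (0.350). Gm30211, a long noncoding RNA gene at 0 in all Pus10-KO libraries and at 9.48 to 23.8 CPM in Pus10-WT, spans chr6:70719074-70740554 on the plus strand, an interval that contains Igkc, so its reads cannot be separated from kappa transcripts.

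**Figure D4:**
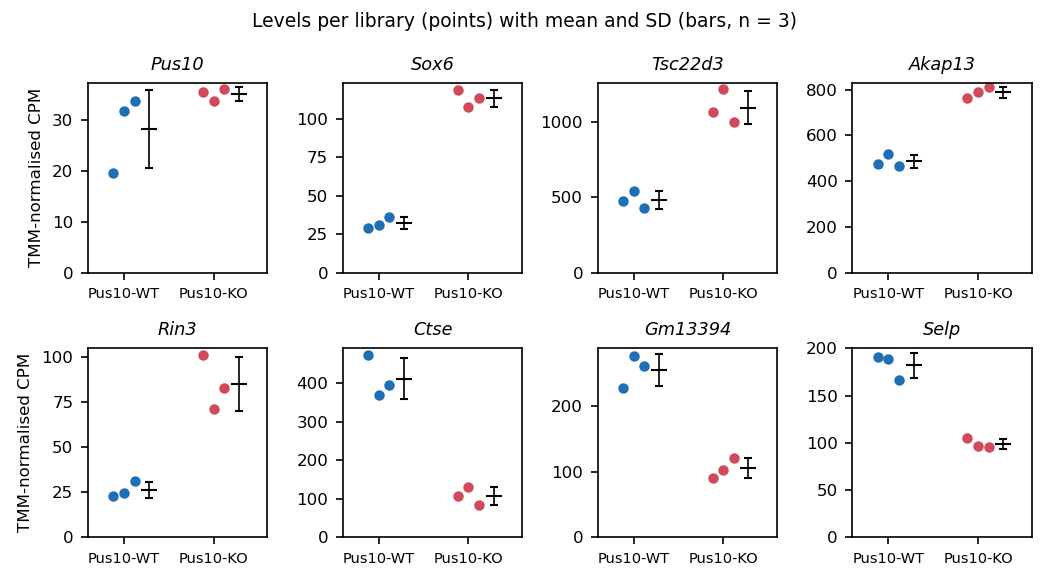
Levels of 8 genes outside immunoglobulin in each library, in TMM-normalised CPM from 0, with the mean and SD of 3 libraries beside the points. Pus10 overlaps between the groups, Sox6 (28.9 to 36.3 against 107 to 118 CPM), Tsc22d3, Akap13 and Rin3 are higher in all 3 Pus10-KO libraries, and Ctse, Gm13394 and Selp are lower.

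Few genes that define HSCs differed between the groups. Of 28 HSC identity genes tested, 0 were called, 2 had a higher and 1 a lower value with an unadjusted p under 0.05, beside 3.53% and 3.33% of all genes. Their median log2 fold change was 0.04. Sult1a1, a sulfotransferase, stood at 1050, 946 and 669 CPM in Pus10-WT and 1287, 1247 and 1468 CPM in Pus10-KO (0.59, SE 0.164, edgeR adjusted p = 0.508). Neo1, the receptor neogenin, stood at 69.1, 63.2 and 41.1 CPM against 31.3, 18.6 and 14.0 CPM (-1.44, SE 0.362, adjusted p = 0.501).

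As shares of all genes, 3.53% had a higher and 3.33% a lower value with an unadjusted p under 0.05. Of 32 HSC aging genes tested, 4 had such a higher and 2 such a lower value, and 0 were called. The higher ones include Clca3a1, at 132 to 163 CPM in Pus10-WT and 232 to 250 CPM in Pus10-KO (edgeR adjusted p = 0.257), and Itgb3, the integrin beta chain of platelets, at 40.9 to 54.3 CPM against 78.0 to 120 CPM (0.429). Selp and Neo1 are the lower ones, so members of the list lay on both sides, with a median of 0.06. Of 12 megakaryocyte and platelet genes tested, 10 had a positive log2 fold change, beside 7277 of 14657 over all genes. Among the 10 were Itgb3 and Nrgn (14.2 to 21.7 against 31.7 to 40.2 CPM, 0.501). Vwf stood at 144, 128 and 194 CPM against 229, 111 and 113 CPM, with overlapping groups.

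Glucocorticoid-responsive genes were described because Tsc22d3 is one of them. Of 10 tested, 1 was called higher, 3 had a higher and 1 a lower value with an unadjusted p under 0.05, and the median log2 fold change was 0.83. Over all genes 0.0136% were called higher, and 3.53% and 3.33% had such a higher or lower value. The 1 call is Tsc22d3 itself, which is also part of the median. Fkbp5, a cochaperone of the glucocorticoid receptor, stood at 33.6, 33.9 and 34.2 CPM in Pus10-WT and 61.9, 81.8 and 55.0 CPM in Pus10-KO (0.97, SE 0.217, edgeR adjusted p = 0.438). Per1, a circadian clock gene, stood at 31.7, 31.1 and 29.2 CPM against 50.8, 58.7 and 56.3 CPM (0.85, SE 0.197, adjusted p = 0.455). Dusp1, a phosphatase that glucocorticoids also induce, lay the other way, at 65.3 to 88.7 CPM against 41.0 to 56.3 CPM (0.537).

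More genes of protein folding were lower than higher in Pus10-KO, without any of them passing. Of 17 genes of the unfolded protein and integrated stress response, 6 had a lower and 0 a higher value with an unadjusted p under 0.05. The same shares over all genes were 3.33% and 3.53%. The list's median was -0.37. Xbp1, given above, is shared with the plasma cell list. Asns, asparagine synthetase, stood at 149, 109 and 209 CPM against 83.8, 60.7 and 90.2 CPM (edgeR adjusted p = 0.506), and Manf, a factor of the endoplasmic reticulum, at 89.1 to 115 CPM against 51.5 to 73.9 CPM (0.564). Of 11 heat shock genes 5 were lower by that measure, beside 3.33% of all genes, with a list median of -0.25. Hspa8, the constitutive HSP70, stood at 4203, 3974 and 3889 CPM against 2684, 3443 and 3174 CPM (0.501). The wild-type libraries of these lists are those that carry the immunoglobulin and plasma cell reads, and the part of those reads in the folding genes was not tested.

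Of 9 CDK inhibitor and Rb family genes tested, 2 had a higher and 1 a lower value with an unadjusted p under 0.05. Such higher and lower values were held by 3.53% and 3.33% of all genes. Of the 9, 6 had a positive and 3 a negative log2 fold change, and the median was 0.23. Cdkn1b, which encodes p27, stood at 12.4, 12.2 and 9.12 CPM in Pus10-WT and 33.4, 30.2 and 23.3 CPM in Pus10-KO (log2 difference 1.36, SE 0.312, adjusted p by edgeR 0.455). Cdkn1c, the imprinted gene of p57, stood at 8.15, 2.71 and 5.30 CPM against 19.9, 16.6 and 20.5 CPM (1.82, SE 0.496, adjusted p = 0.507). Neither had overlapping groups and neither passed. Trp53, the gene of p53, was the lower one, at 514 to 583 CPM against 426 to 456 CPM (0.568). It was counted with this list, although p53 is neither a CDK inhibitor nor an Rb family protein. Of 10 imprinted genes tested, 3 had a higher value with an unadjusted p under 0.05, beside 3.53% of all genes. The 3 were Cdkn1c, Peg13 (22.7 to 34.0 against 39.7 to 65.2 CPM) and Ndn (121 to 150 against 160 to 173 CPM). Of 29 replication genes and 30 mitosis genes, 0 had an unadjusted p under 0.05, and their summed levels varied between libraries of 1 group, from 601 to 2270 CPM for mitosis in Pus10-WT and from 864 to 1562 CPM in Pus10-KO.

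The pathway of PUS10 itself was followed through 2 lists. Over all genes tested, 7379 of 14657 had a negative log2 fold change and 3.33% a lower value with an unadjusted p under 0.05. Of 15 pseudouridine synthase genes tested, 10 had a negative log2 fold change and 2 such a lower value. These were Trub2, a mitochondrial synthase (30.9, 29.7 and 47.0 against 24.0, 12.8 and 13.0 CPM, edgeR adjusted p = 0.568), and Pus1, which modifies transfer RNA (87.9, 82.7 and 51.1 against 41.5, 51.1 and 45.0 CPM, 0.637). Their median was -0.18. Of 19 microRNA processing genes, 3 had a higher value by that measure, Tnrc6c, Tnrc6b and Ddx17, beside 3.53% of all genes. The median over the list was 0.06. Tnrc6c and Tnrc6b encode scaffolds of the silencing complex and Ddx17 a helicase that works with the microRNA processing enzyme Drosha. Tnrc6c stood at 54.0 to 60.1 CPM in Pus10-WT and 75.3 to 130 CPM in Pus10-KO (0.537).

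Lists of energy production did not all lie on 1 side. Of 78 nuclear genes of oxidative phosphorylation, 8 had a lower and 0 a higher value with an unadjusted p under 0.05, and 61 had a negative log2 fold change. The list's median was -0.12. Over all genes tested, 3.33% had such a lower and 3.53% such a higher value, and 7379 of 14657 had a negative log2 fold change. Atp5b and Atp5a1, the beta and alpha subunits of the mitochondrial ATP synthase, stood at 1512 to 1774 CPM against 1234 to 1260 CPM and at 958 to 1076 CPM against 794 to 804 CPM (edgeR adjusted p = 0.350 and 0.501). Of 11 mitochondrially encoded genes, 6 had a positive and 5 a negative log2 fold change, with a median of 0.01, and mt-Nd2, a subunit of complex I, stood at 232 to 293 CPM against 297 to 449.9 CPM (0.693). Of 20 glycolysis genes, 10 lay on each side, with a median of -0.02. Of 24 ribosome biogenesis genes, 20 had a negative log2 fold change and 3 an unadjusted p under 0.05, among them the nucleolar Nop2 (125 to 147 against 75.5 to 108 CPM). The 80 ribosomal protein genes had a median of -0.02. Scaling by library size alone moves the median of all genes by 0.06.

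Some transcripts of the neutrophil lineage were high in only part of the Pus10-KO libraries. Elane, the elastase of neutrophil progenitors, stood at 0.124, 1.70 and 0 CPM in Pus10-WT and at 1.48, 715 and 1292 CPM in Pus10-KO 1, 2 and 3. Mpo, myeloperoxidase, stood at 0.247, 682 and 1204 CPM in the same 3 libraries and at 0.0630 CPM at most in Pus10-WT. These 2 genes were high in Pus10-KO 2 and 3 and near 0 in Pus10-KO 1. Other genes of the neutrophil and monocyte list were high in all 6 libraries, with overlapping groups. Prtn3 stood at 533 to 810 CPM in Pus10-WT and 601 to 891 CPM in Pus10-KO, and Lyz2 at 553 to 788 against 646 to 806 CPM. Of 13 neutrophil and monocyte genes tested, 3 had a higher value with an unadjusted p under 0.05, beside 3.53% of all genes. Of the 13, 0 were called and 12 had a positive log2 fold change, beside 7277 of 14657 over all genes. The list's median was 1.34. Elane, Cebpe and Camp, the 3 with that unadjusted p, passed the filter on low counts only through Pus10-KO, which set their direction. The list's counts and median therefore cannot be weighed against the values over all genes. Camp, the cathelicidin of neutrophil granules, was low but did not overlap between the groups, at 0, 0.126 and 0.212 CPM in Pus10-WT and 2.47, 1.75 and 2.71 CPM in Pus10-KO (edgeR adjusted p = 0.603). Plac8, an antigen of myeloid and lymphoid progenitors, was also higher in all 3 Pus10-KO libraries, at 24.4, 156 and 272 CPM against 3.09 to 13.6 CPM in Pus10-WT (edgeR adjusted p = 0.455).

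Globins were high in another pair of libraries. Hba-a1, an alpha globin, stood at 37.7, 126 and 24.2 CPM in Pus10-WT and at 1623, 132 and 2410 CPM in Pus10-KO 1, 2 and 3, so that Pus10-KO 2 was only just above the highest wild-type library (edgeR adjusted p = 0.508). Hbb-bs, a beta globin, stood at 23.3, 84.2 and 11.2 CPM against 1322, 26.6 and 2133 CPM, and its groups overlapped. Of 14 erythroid genes tested, 6 had a higher and 1 a lower value with an unadjusted p under 0.05, and 0 were called. Such higher and lower values were held by 3.53% and 3.33% of all genes. Not all of the erythroid programme followed the globins: Gata1, its leading transcription factor, stood at 48.2, 0.0630 and 60.7 CPM in Pus10-WT and at 42.3, 13.6 and 12.6 CPM in Pus10-KO.

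Without Pus10-KO 2 and 3, the libraries with Elane and Mpo, 1 gene was called and it was not among the 9, with the spread then taken from Pus10-WT alone. Without Pus10-KO 1 and 3, those with the most globin, 2 were called, again none of the 9. The log2 fold changes in these fits were 1.88 and 1.75 for Sox6 and -1.94 and -1.65 for Ctse. The part of these lineages in the results above was not tested further.

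**Figure D5:**
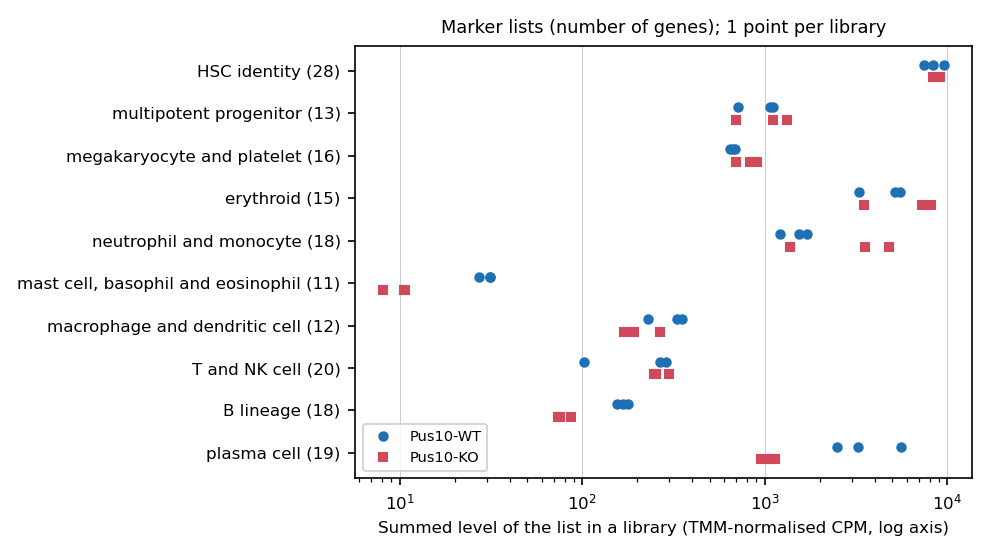
Summed level of each marker list in each library, in TMM-normalised CPM on a log axis, with 1 point per library and the number of genes in brackets. The plasma cell, B lineage and mast cell, basophil and eosinophil lists do not overlap between the groups, the last through Prg2, HSC identity does overlap, and the neutrophil and monocyte list is high in 2 Pus10-KO libraries only.

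PUS10 overexpression and the Pus10 knockout genotype were set side by side by testing, gene by gene, whether the log2 difference Pus10-KO minus Pus10-WT differs from PUS10-OE minus Vector. The 2 experiments share no samples. Of 16713 genes tested, 6 passed (0.0359%), and 1498 (8.96%) had an edgeR unadjusted p under 0.05. Tsc22d3, higher in Pus10-KO, stood at 71.4, 75.3 and 93.5 CPM in Vector and at 52.1, 45.4 and 58.8 CPM in PUS10-OE, on the scaling of that experiment. Its difference of effects was 1.76 (SE 0.194, adjusted p = 0.0185), and all 3 PUS10-OE libraries were below all 3 Vector libraries. In PUS10-OE against Vector alone, its log2 difference of -0.62 (SE 0.154) did not pass (edgeR adjusted p = 0.364).

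Selp, lower in Pus10-KO, stood at 11.997, 7.82 and 10.0 CPM in Vector and 31.7, 17.4 and 14.4 CPM in PUS10-OE, and its difference of effects of -2.01 (SE 0.365) did not pass (edgeR adjusted p = 0.190). Pus10 itself had a difference of -1.49 (SE 0.317, adjusted p = 0.230), with 53.6, 92.8 and 81.5 CPM in Vector and 285, 246 and 242 CPM in PUS10-OE. DESeq2 called this difference (-1.47, adjusted p = 0.00221).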

How the data were processed

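Smart-seq2 libraries of sorted mouse HSCs were deposited as raw whole-number counts of reads per gene, 1 table per sample. Smart-seq2 copies polyadenylated RNA into full-length cDNA, per the labels' protocols, and keeps no strand, so overlapping and antisense genes cannot be told apart. The submitters' processing notes name HISAT2 2.1.0, HTSeq 0.11.2, DESeq2 and the build mm10, but the sources used here give no annotation release. Symbols (55394 of 55487 IDs), coordinates and sequences came from GENCODE M21 (GRCm38).

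The 5 summary entries (9.11% to 12% of reads in no gene and 8.52% to 9.40% ambiguous in the 6 libraries) stayed out of all totals. The main fit used only the 3 Pus10-KO and 3 Pus10-WT libraries in edgeR 4.0.16 (R 4.3.3): filterByExpr, TMM scaling, robust quasi-likelihood F test, two-sided, with Benjamini-Hochberg adjustment over all 14657 genes tested and a call at an adjusted p under 0.05. The difference of effects was fitted on these and the 6 PUS10-OE and Vector libraries. Each standard error is the log2 fold change over the root of F. Levels are TMM-scaled CPM within each experiment, with log2 changes from the fit. Folds against a group at 0 use 3 counts over the group. Replicates were not duplicates: chi-square over degrees of freedom was at least 48.2 in all 6 within-group pairs.

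Named genes were drawn from Pus10, all called genes, the 10 per direction with the lowest p outside immunoglobulin (mean log2 CPM of at least 3, separated groups), up to 4 immunoglobulin genes per class by level, 3 members with the lowest p and 3 with the highest level of each list described, and the 5 with the lowest p for the difference of effects. Igha, Kit, Hlf, Sdc1, Mzb1, Pax5, Igll1, Blk, Rag1, Rag2, Mpo, Gata1, Xist, Ddx3y, Uty, Kdm5d, V genes beyond the first 4 and Epx were named after their values were seen. Not every gene that the rule allows is printed, and 1 result is not reported here. Members and lists were chosen with earlier results of these data known. Fits were checked on simulated counts. Alternatives were DESeq2 1.42.0, limma-voom (limma 3.58.1) with quality weights, other scalings and filters, a non-robust fit, all 6 groups in 1 fit, the replicate number as a block and each library left out; 2 more, leaving out pairs of Pus10-KO libraries, were added after the data were seen. Plots used matplotlib 3.10.9 (Python 3.11.15), and identities came from global alignment in Biopython 1.88.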

Additional observations from a re-analysis of the deposited data

Results flagged for a closer look

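Of the genes tested, 6 had effects that differed between the 2 experiments by the interaction test (edgeR, adjusted over 16713 genes). As log2 differences, Pus10-KO minus Pus10-WT less PUS10-OE minus Vector, they were 1.76 for Tsc22d3 (adjusted p = 0.0185), -6.83 for Ighm (0.0300), -0.93 for Ifitm3 (0.0356), 2.06 for AC091309.4 (0.0356), -11.93 for Smpdl3b (0.0356) and -6.83 for Fam72a (0.0496). Ifitm3, an interferon-induced membrane protein, stood at 1294 to 1552 CPM in Pus10-WT and 1194 to 1244 CPM in Pus10-KO, and at 840 to 966 CPM in Vector and 1321 to 1574 CPM in PUS10-OE. AC091309.4, a long noncoding RNA, stood at 167 to 231 CPM against 222 to 252 CPM in the knockout experiment and at 2.06 to 2.89 CPM against 0.470 to 0.777 CPM in the other. Smpdl3b was at 0 in all 3 Pus10-KO libraries, against 2.46 to 11.2 CPM in Pus10-WT, so its fitted difference is no bound, and Fam72a had 2 counts in Pus10-KO, against 3.11 to 7.21 CPM in Pus10-WT. Fam72a is the sixth by p and is named after its values were seen. Of the 6 calls, 0 to 3 were kept with 1 library left out.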

How the results depend on the processing

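Against 9 genes called, 6 of them outside immunoglobulin, the counts were 146 and 138 with DESeq2, 3 and 3 with limma-voom, 14 and 11 with a filter of 10 CPM, and 15 and 14 with all 6 groups in 1 fit. They were 0 and 0 with immunoglobulin and plasma cell genes removed before scaling, where the list without those genes is also shorter, 1 and 0 without the Elane libraries and 2 and 1 without the globin libraries. Other scalings, no filter and a non-robust fit stayed within 1.5 times. Of the 9 calls, 9 were kept with DESeq2, 7 with a filter of 10 CPM and 3 with limma-voom. All 6 groups in 1 fit kept 2 of them, Cd79a and Tsc22d3, and the fit without Pus10-KO 1 kept 4. Leaving out 1 library each gave 0 to 10 and 0 to 7 calls: 0 without Pus10-KO 2 or Pus10-KO 3 (1163 and 1078 genes at an unadjusted p under 0.05), 1 without Pus10-WT 2 or 3, 2 without Pus10-WT 1 and 10 without Pus10-KO 1. The replicate block gave 2 and 0 calls (789 genes at an unadjusted p under 0.05). Deviations of same-numbered libraries correlated at -0.003, 0.01 and -0.027, and the labels tie no numbers together, so the numbers do not pair the samples.

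The difference of effects gave 239 calls with DESeq2, 1 with the replicate block and 0 to 7 with 1 library left out, against 6. Of these 6 calls, 6 were kept with DESeq2 and 5 each with another scaling, no filter and a filter of 10 CPM. Only 1 was kept with the replicate block and 1 with all 6 groups in 1 fit. With 1 library left out, 0 to 3 were kept. The Tsc22d3 difference was called in all 18 alternatives but 1 (0.0555 without PUS10-OE 1). The Pus10 log2 fold change, Pus10-KO against Pus10-WT, stayed between 0.10 and 0.45 and passed in none. The direction of Ighmbp2 turned to 0.31 with limma-voom, 0.0045 by library size, 0.12 with the block, 0.22 without the Elane libraries, and ran from -0.48 to 0.22 with 1 library left out (0.22 without Pus10-WT 2, 0.17 without Pus10-WT 3, 0.04 without Pus10-KO 3). Hba-a2 turned to -0.25 and Hbb-bs to -0.57 without the globin libraries. The cause of each change was not tested.

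With 3 libraries a group, exact permutation of 1 gene cannot go below 0.1.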

Other observations

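The heavy chain constant genes outside the rule differed among the wild-type libraries. In Pus10-WT 1, Igha, the constant region of IgA, held 64.2% of the counts of heavy chain constant genes, and Ighm 35.7%. In Pus10-WT 2 and 3, Ighm held 99.7% and 99.98%, and Igha 0.240% and 0.0223%. As a level, Igha stood at 9678, 26.9 and 3.25 CPM in the 3 wild-type libraries and had 3 counts in all of Pus10-KO, a ratio of 51270 with a counting interval of 17540 to 248600 (edgeR adjusted p = 0.603), so that 1 library held nearly all of it. Ighg3 had 64 counts in Pus10-WT 1 and 49 in Pus10-WT 2. Pus10-WT 1 was also the library with the highest Jchain, Sdc1 (28.9 CPM) and Slamf7 (26.1 CPM), the last an adhesion receptor of plasma cells.

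A pair of enzymes of the oxidative stress response lay on opposite sides without passing. Hmox1, heme oxygenase, stood at 53.8, 55.1 and 72.4 CPM in Pus10-WT and 7.82, 7.69 and 29.5 CPM in Pus10-KO (log2 fold change -2.003, SE 0.548, edgeR adjusted p = 0.507). Gclm, a subunit of the enzyme that starts glutathione synthesis, stood at 123, 109 and 100 CPM against 161, 240 and 162 CPM (0.76, SE 0.190, adjusted p = 0.501). Kmt2a, a histone methyltransferase that HSCs need, stood at 143, 140 and 160 CPM against 244, 198 and 218 CPM (0.58, adjusted p = 0.438).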
